A study of Homo sapiens with 6 samples.

Results

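The tribbles genes TRIB1, TRIB2 and TRIB3 and a group of effector genes that lie downstream in the integrated stress response (NUPR1, GDF15, FGF21, STC2, VLDLR, NIBAN1 and EIF4EBP1) were followed in MDA-MB-231 cells exposed to YW3-56. The genes were given as a list of 10 symbols, by a rule that uses no measured value, but the list was drawn up with earlier results of these data known. All 10 were among the 18417 genes that the arrays measured. Each of the 10 was read by 1 probe set, so no choice between probe sets was needed. The cells are an established human line derived from a triple-negative breast cancer. Affymetrix arrays were run on 3 cultures given the vehicle DMSO and on 3 given YW3-56 at 10 µM for 8 h, and the labels state no separate time for the vehicle. All 6 cultures were of this line, grown in serum-containing medium and treated before they were confluent, and the labels describe the replicates as biological. YW3-56 is known as an inhibitor of the peptidylarginine deiminases, the enzymes that turn arginine residues of proteins into citrulline. With 1 cell line, 1 dose and 1 time, the design asks how these transcripts differed between compound and vehicle.

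In the integrated stress response, kinases that sense amino acid lack, misfolded protein, haem lack or double-stranded RNA phosphorylate the initiation factor eIF2. General translation falls while the mRNA of the transcription factor ATF4 is translated more, and ATF4, often with its partner CHOP (the product of DDIT3), switches on genes of amino acid supply and stress adaptation. TRIB3 is a known target of both factors and feeds back on them. Tribbles proteins are pseudokinases, with a kinase fold but little or no catalytic activity. They act as scaffolds: TRIB1 and TRIB2 bring the ubiquitin ligase COP1 to C/EBP factors, and TRIB3 binds ATF4, CHOP and the kinase AKT. GDF15, FGF21 and STC2 encode secreted proteins, VLDLR a cell surface receptor, and NUPR1, NIBAN1 and EIF4EBP1 intracellular proteins that regulate chromatin, cell survival and translation.

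The RefSeq promoter table (assembly GRCh38.p14), which holds 250 bases before and 50 after a transcription start, had windows for 7 of the 10 genes. These were TRIB2, TRIB3, GDF15, FGF21, STC2, VLDLR and NIBAN1, with 9 windows in all since TRIB3 has 3 starts. The core of the C/EBP-ATF response element, searched as TGATGNAA on both strands, occurred in the FGF21 window alone, 54 to 47 bases before the start on the opposite strand, and in 3.62% of all 35116 windows. The full palindromic cAMP response element, TGACGTCA, occurred in 0 of the 9 windows and in 1.85% of all windows. The CCAAT box, which was added after the table was seen, occurred on the opposite strand in the windows of GDF15 and STC2 and in 34.6% of all windows. The stretches of 250 bases that end at the base before the start are shown, for the gene with the response element core, for the tribbles gene that rose most, and for the secreted factor that rose most. Capitals mark the response element core in FGF21 and the CCAAT box in GDF15, both read on the opposite strand, and the TRIB3 stretch held neither. They lie at chr19:48755274-48755523, chr20:381045-381294 and chr19:18385908-18386157, all on the plus strand.
FGF21: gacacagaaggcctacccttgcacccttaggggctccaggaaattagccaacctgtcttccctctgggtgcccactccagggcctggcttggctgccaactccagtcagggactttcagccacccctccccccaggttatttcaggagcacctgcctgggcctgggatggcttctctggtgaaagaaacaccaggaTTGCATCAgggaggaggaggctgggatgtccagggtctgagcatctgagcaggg
TRIB3: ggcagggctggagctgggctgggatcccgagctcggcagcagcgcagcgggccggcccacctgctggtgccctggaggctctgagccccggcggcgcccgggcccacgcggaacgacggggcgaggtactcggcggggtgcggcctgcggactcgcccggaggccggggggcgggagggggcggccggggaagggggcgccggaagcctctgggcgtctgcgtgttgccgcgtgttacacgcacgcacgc
GDF15: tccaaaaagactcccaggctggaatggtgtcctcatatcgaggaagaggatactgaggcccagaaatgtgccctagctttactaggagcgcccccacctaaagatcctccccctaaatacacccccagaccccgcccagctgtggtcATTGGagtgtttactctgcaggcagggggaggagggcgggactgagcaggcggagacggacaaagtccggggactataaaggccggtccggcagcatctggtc
The FGF21 sequence has a GC content of 60.0%, the GDF15 sequence 58.4% and the TRIB3 sequence 78.8%. These matches describe letters in short windows, and the arrays measured no binding.

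Values are the deposited expression values on the log2 scale, after robust multi-array averaging (RMA), so a difference of 1.00 between groups is a 2-fold change. Differences were tested with limma across all 18417 genes, two-sided, and a gene was called at a Benjamini-Hochberg adjusted p under 0.05. Arrays of 1 group correlated over genes at 0.990 to 0.997, and arrays of different groups at 0.980 to 0.985. Array medians lay between 7.55 and 7.74, lowest in DMSO replicate 1 and highest in DMSO replicate 3. The line's labels were set against fixed markers. VIM, CD44, AXL and CAV1, which mark its mesenchymal state, all lay above the 99th percentile of mean signal over genes, while SPARC lay at the 37.8 percentile. Among 10 epithelial and luminal markers, PGR lay at the 8.88 percentile, CDH1 at 14.1 and ESR1 at 22.4. The keratin KRT8 was bright at 94.7, CLDN3 lay at 65.7 and FOXA1 at 62.4, and the median of the 10 was 34.9. RMA values have no true zero, so absence cannot be read from them. The summed log2 values of the 8 mesenchymal markers ran from 100.2 to 100.3 in DMSO and from 98.7 to 98.9 in YW3-56, and those of the 10 epithelial markers from 77.0 to 79.2 and from 76.2 to 77.7. Of the 8 mesenchymal markers 2 (25%) were called lower and 0 higher. Of the 10 epithelial markers 1 (10%) was called higher and 2 (20%) lower. Over all genes, 9.84% were called higher and 11.5% lower. The part of these markers in the results was not tested. In RNA from whole cultures, fewer cells carrying a transcript and less of it per cell cannot be told apart.

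The control arrays were not alike for these genes. Of the 10 genes, 9 were lowest among the DMSO arrays in DMSO replicate 1, and the exception, TRIB2, was highest there. Over all genes, DMSO replicate 1 was the lowest of the 3 in 45.7%. When each array was centred on its median, 7 of the 10 genes were lowest in DMSO replicate 1, against 26.9% of all genes. FGF21 was 0.40 lower in DMSO replicate 1 than in the mean of the other DMSO arrays. This gap was 0.38 for STC2, 0.36 for VLDLR, 0.35 for TRIB3 and 0.32 for EIF4EBP1. It was 0.24 for NIBAN1, 0.22 for GDF15, 0.15 for NUPR1, 0.05 for TRIB1 and -0.12 for TRIB2. The median of this signed gap over all genes was 0.03, which does not show how far single genes spread. The results below are therefore given with and without this array where that matters.

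Of the 10 genes, 5 were called higher in YW3-56, namely TRIB3, GDF15, NIBAN1, VLDLR and NUPR1. TRIB2 was called lower, and TRIB1, FGF21, STC2 and EIF4EBP1 were not called. Over all genes, limma called 21.4%, with 9.84% higher and 11.5% lower. The 3 treated arrays lay above all 3 DMSO arrays for 6 of the 10 genes and for 15.5% of all genes, and below them for 1 of the 10 and for 21.4% of all genes. The median log2 difference of the 10 genes was 0.39, beside -0.05 over all genes. The members were chosen with earlier results of these data known, so these shares describe them and carry no test. Among called genes, 165 rose and 97 fell by at least 2-fold, and 5 of the 10 genes are in that group, all but NUPR1 of those called.

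**Figure D1:**
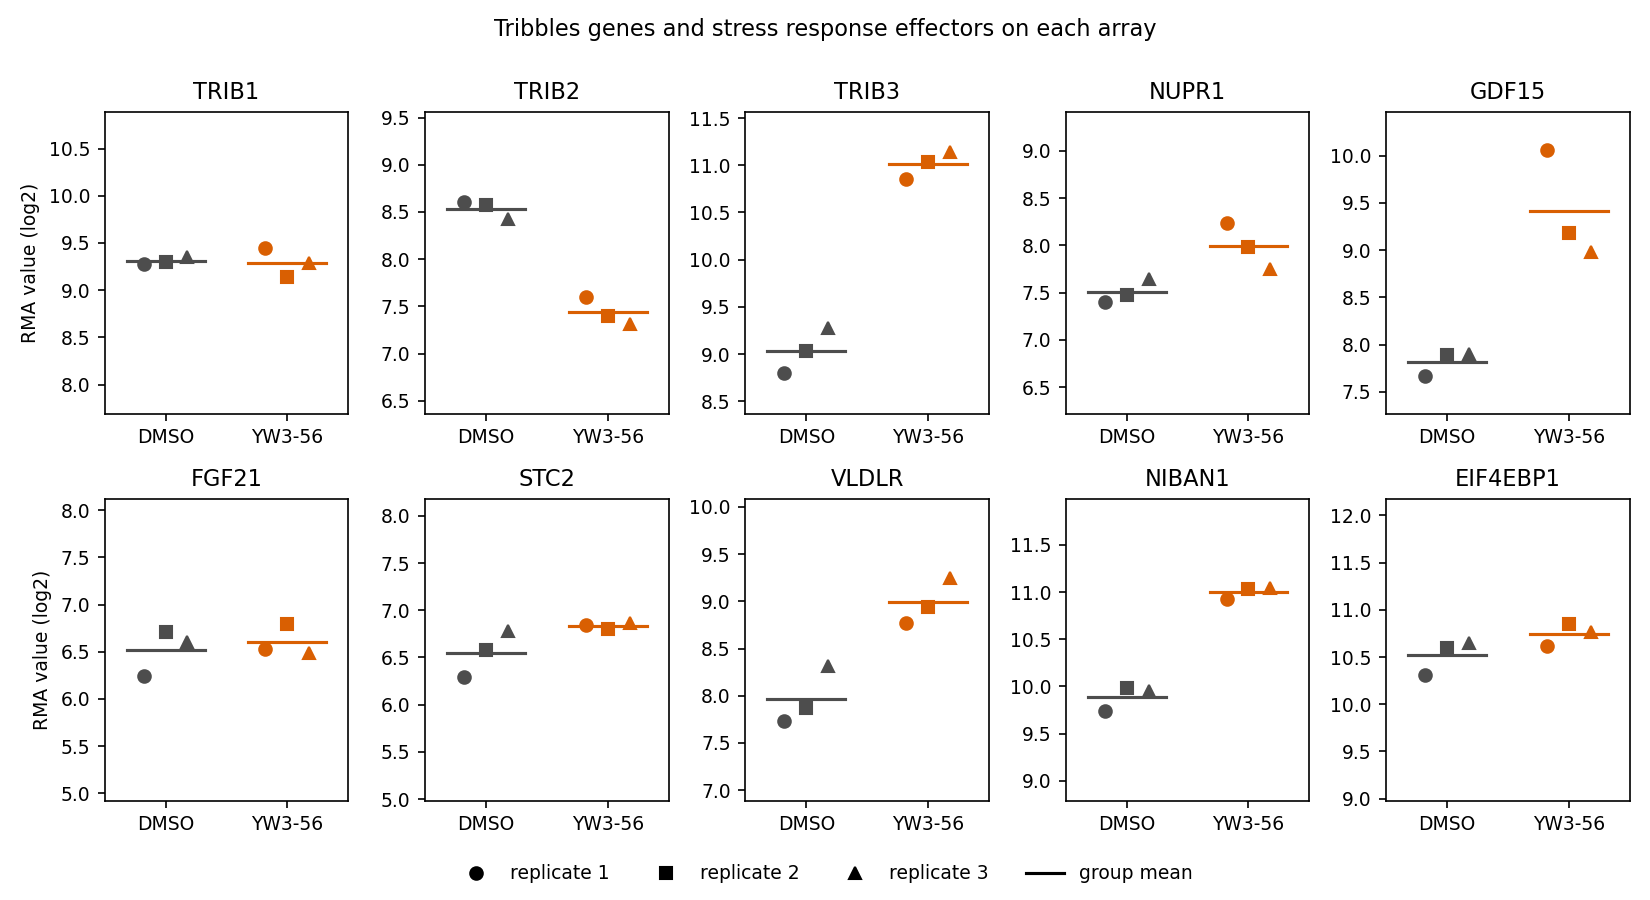
Deposited RMA value (log2, vertical axis, the same span in each panel) of the 10 genes on the 3 DMSO arrays (grey) and the 3 YW3-56 arrays (orange), with marker shape for the replicate number and a line for the group mean. TRIB3, GDF15, NIBAN1 and VLDLR were clearly separated upward and TRIB2 downward, while TRIB1, FGF21 and EIF4EBP1 overlapped between groups.

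The tribbles genes went 3 different ways. TRIB3, the stress-induced pseudokinase, measured 8.80, 9.03 and 9.28 in DMSO replicates 1, 2 and 3 and 10.86, 11.03 and 11.14 in the YW3-56 replicates. All treated arrays lay above all controls, with a gap of 1.58 between the nearest arrays. TRIB3 was 3.93-fold higher in YW3-56 (log2 difference 1.97 ± 0.13, limma adjusted p = 1.1e-04), with rank 19 among all 18417 differences from the largest rise down. Here and below, ± gives limma's SE of the difference between groups of 3 arrays. For this SE, limma draws each gene's variance towards a value shared over genes, so it can differ from the spread of the arrays alone. The 95% interval of TRIB3 ran from 1.67 to 2.27. Without DMSO replicate 1, where its control level was lowest, the difference was 1.86.

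TRIB2, the scaffold that directs C/EBP factors to degradation, measured 8.61, 8.57 and 8.42 in DMSO and 7.60, 7.40 and 7.32 in YW3-56. The treated arrays all lay below the controls, by 0.82 at the nearest. TRIB2 was 2.13-fold lower (-1.09 ± 0.10, adjusted p = 3.1e-04, 95% interval -1.32 to -0.87), at rank 73 from the largest fall up. Leaving out any 1 array kept the call, with differences from -1.17 to -1.03.

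TRIB1, the close relative of TRIB2 with the same ubiquitin ligase partner, measured 9.27, 9.30 and 9.36 in DMSO and 9.44, 9.14 and 9.29 in YW3-56. The treated values surrounded the control values. The difference was -0.02 ± 0.09 (adjusted p = 0.929), and its 95% interval of -0.23 to 0.19 did not reach the size of either relative's change. The sign of this small difference turned with the scaling, to 0.00 after a repeated quantile normalization and 0.01 after centring of each array. The 95% intervals of TRIB1, TRIB2 and TRIB3 did not overlap each other, although differences between genes were not tested.

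**Figure D2:**
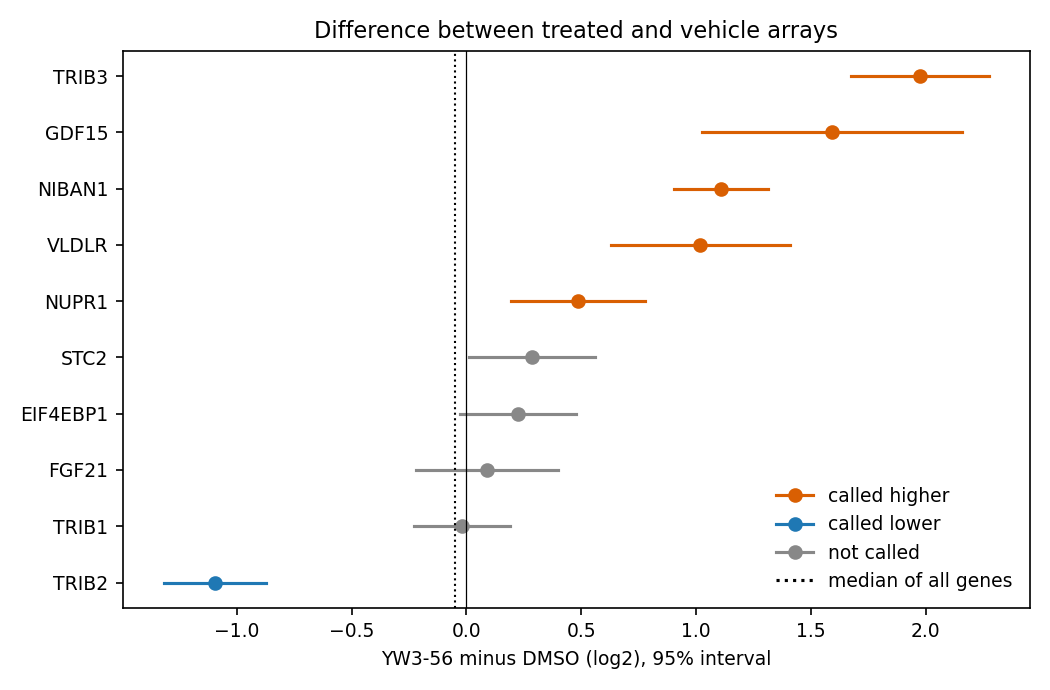
Difference of group means (YW3-56 minus DMSO, log2, horizontal axis) for each of the 10 genes, with the 95% interval from limma as a line, n = 3 arrays per group. Orange points were called higher, blue lower and grey not called, and the dotted line at -0.05 is the median over all genes. TRIB3 (1.97) and TRIB2 (-1.09) stand at opposite ends.

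Among the secreted effectors, GDF15 was called higher, and FGF21 and STC2 were not called. GDF15, a cytokine of the TGF-beta superfamily that cells release under stress, measured 7.67, 7.89 and 7.90 in DMSO and 10.07, 9.19 and 8.98 in YW3-56. The groups were 1.08 apart at their nearest arrays, but YW3-56 replicate 1 stood well above the other treated arrays. GDF15 was 3.01-fold higher (1.59 ± 0.25 SE, adjusted p = 0.0029, 95% interval 1.02 to 2.16), with rank 40 from the largest rise down. The SD of its treated arrays was 0.58, the widest among the 10 genes in either group, beside 0.13 in DMSO. Without YW3-56 replicate 1 the difference was 1.27 (adjusted p = 0.0014). Between arrays of the same replicate number the differences were 2.39, 1.30 and 1.08 for numbers 1, 2 and 3.

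FGF21, a metabolic hormone released by stressed liver and muscle, measured 6.25, 6.71 and 6.60 in DMSO and 6.53, 6.80 and 6.49 in YW3-56. The groups overlapped, and the probe set was dim, at the 18.6 percentile of mean signal over genes. Its difference was 0.09 ± 0.14 (adjusted p = 0.726, 95% interval -0.22 to 0.40), and it was -0.05 without DMSO replicate 1. This was the gene whose promoter window held the response element core shown above.

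STC2, a secreted glycoprotein that restrains the protease PAPP-A, measured 6.30, 6.58 and 6.78 in DMSO and 6.84, 6.81 and 6.87 in YW3-56. The treated arrays lay close together, with an SD of 0.03 against 0.24 in DMSO, and were above the highest control by only 0.02. The difference was 0.29 ± 0.12, with a limma adjusted p of 0.139 and a 95% interval of 0.01 to 0.56 that was not adjusted for the number of genes. It depended on the controls, at 0.16 without DMSO replicate 1 and 0.40 without DMSO replicate 3, the setting in which it was called (adjusted p = 0.034). A repeated quantile normalization (0.32, adjusted p = 0.034) and array weights (0.26, adjusted p = 0.034) also called it.

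The membrane receptor VLDLR, which takes up lipoproteins and transmits reelin signals, measured 7.73, 7.87 and 8.31 in DMSO and 8.78, 8.94 and 9.25 in YW3-56. All treated values exceeded all control values, by 0.47 at the nearest, and number 3 was the highest array in both groups. VLDLR was 2.03-fold higher (1.02 ± 0.17 SE, adjusted p = 0.0039, 95% interval 0.63 to 1.41). Leaving out 1 array at a time gave 0.89 to 1.19. Differences between arrays of the same number were 1.05, 1.07 and 0.94, closer together than the arrays within either group, whose SDs were 0.30 and 0.24. A fit with the replicate number as a block gave an SE of 0.07 in place of 0.17. Whether equal numbers mark paired cultures is uncertain.

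NIBAN1, a cytoplasmic protein induced by stress and linked to cell survival, measured 9.73, 9.99 and 9.95 in DMSO and 10.93, 11.03 and 11.05 in YW3-56. The treated arrays agreed within a range of 0.12 and were above the controls by at least 0.94. NIBAN1 was 2.16-fold higher (1.11 ± 0.09, adjusted p = 2.2e-04, 95% interval 0.90 to 1.32), and leaving out 1 array at a time gave 1.03 to 1.16.

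NUPR1, a small disordered protein of chromatin that helps cells through stress, measured 7.40, 7.47 and 7.64 in DMSO and 8.23, 7.98 and 7.75 in YW3-56. The groups did not overlap, but the lowest treated array was above the highest control by only 0.12. NUPR1 was 1.40-fold higher (0.49 ± 0.13 SE, adjusted p = 0.027, 95% interval 0.19 to 0.78). Any of 3 omissions ended the limma call: with DMSO replicate 2 omitted the difference was 0.47 (adjusted p = 0.094), with YW3-56 replicate 1 omitted 0.36 (0.074) and with YW3-56 replicate 2 omitted 0.49 (0.079). Differences between arrays of the same number were 0.83, 0.51 and 0.12. As with GDF15, YW3-56 replicate 1 was the highest treated array and YW3-56 replicate 3 the lowest.

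EIF4EBP1, the repressor that binds the cap-binding factor eIF4E and is itself switched off by mTORC1, measured 10.31, 10.60 and 10.65 in DMSO and 10.62, 10.85 and 10.76 in YW3-56. The groups overlapped, since YW3-56 replicate 1 lay below DMSO replicate 3. The difference was 0.23 ± 0.11 (adjusted p = 0.209, 95% interval -0.03 to 0.48), and it was 0.12 without DMSO replicate 1. Between arrays of the same replicate number the differences were 0.31, 0.25 and 0.11, and with the number as a block the adjusted p was 0.063. The interval leaves room for a rise of up to 0.48, below the lower bounds for TRIB3, GDF15, NIBAN1 and VLDLR.

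**Figure D3:**
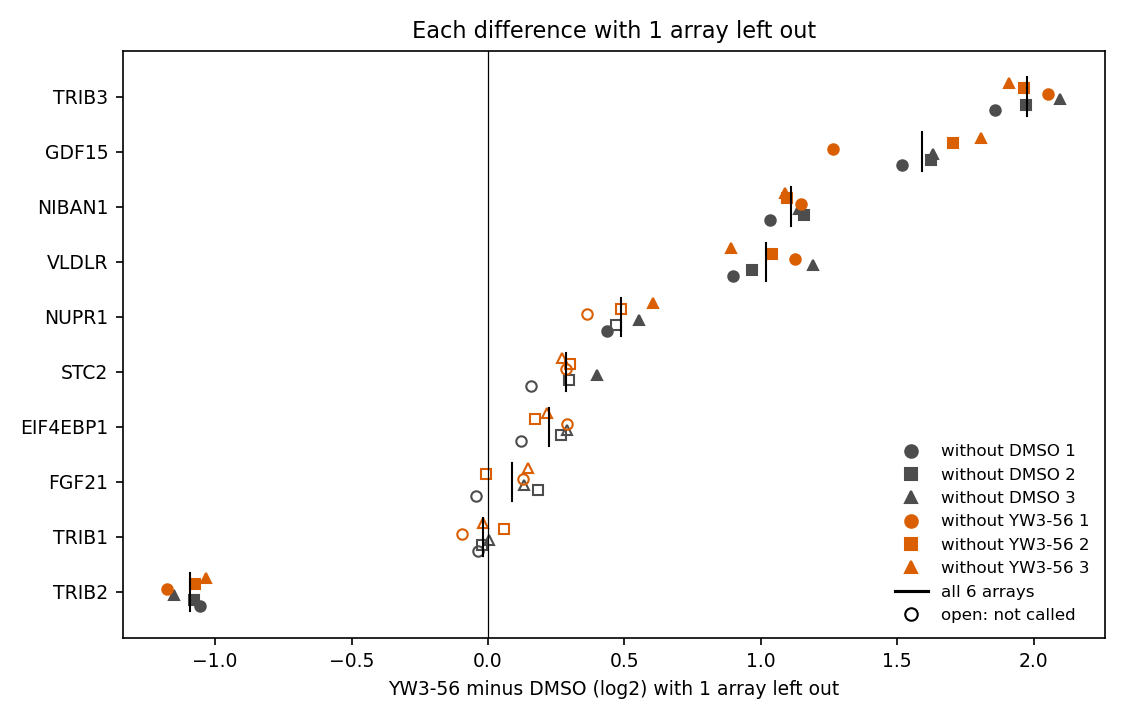
Log2 difference (YW3-56 minus DMSO, horizontal axis) of each gene when 1 of the 6 arrays was left out, with grey markers for a left-out DMSO array, orange for a left-out YW3-56 array, filled markers for calls, open markers for values not called and a black line for all 6 arrays. TRIB3, GDF15, NIBAN1, VLDLR and TRIB2 kept their calls throughout, and GDF15 moved most, down to 1.27 without YW3-56 replicate 1.

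The treated arrays fell into 2 orders among the called genes. TRIB3, VLDLR and NIBAN1 were lowest in YW3-56 replicate 1 and highest in YW3-56 replicate 3. NUPR1 and GDF15 had the opposite order, and so did TRIB2, the gene that fell. Over all genes, YW3-56 replicate 1 was the lowest treated array in 37.0% and the highest in 36.5%.

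The 4 genes outside the list whose profile over the 6 arrays lay nearest to that of TRIB3, by Euclidean distance after subtraction of each gene's DMSO mean, were CTH, JMY, KLHL24 and TSC22D3. Their distances were 0.37, 0.42, 0.44 and 0.47, and their differences were 2.01, 1.81, 1.94 and 2.19. CTH makes cysteine from cystathionine, and TSC22D3 encodes the glucocorticoid-induced leucine zipper GILZ. CTH and KLHL24 were also members of the ATF4 pathway list. The measure rests on 6 arrays in 2 groups and mostly reflects the size of the difference between them.

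Other genes of the pathway were read from lists. Like the members, these lists were chosen with earlier results of these data known, so their shares describe them and carry no test. In a list of 30 genes for ATF4, its partners and its targets, 29 were measured, of which 24 were called higher by limma, 0 lower and 5 not called (median 0.83). The share called higher was 82.8%, beside 9.84% of all genes. At an unadjusted p under 0.05 there were 26 higher and 1 lower, the same counts as with replicate number as a block, while 13.5% of all genes were higher and 18.1% lower at that threshold. The largest differences were those of DDIT3 (3.36 ± 0.12), the mTORC1 inhibitor SESN2 (2.61 ± 0.15), CHAC1, which degrades glutathione (2.52 ± 0.41), and the mTORC1 inhibitor DDIT4 (2.17 ± 0.24). CHAC1 measured 8.21, 9.26 and 10.16 in DMSO replicates 1, 2 and 3, with an SD of 0.98 against 0.16 in YW3-56, so the size of its difference depends on the controls. The members not called were PSAT1 (0.58), SHMT2 (0.32), PHGDH (-0.00), ALDH1L2 (-0.10) and ATF5 (-0.24). The ALDH1L2 probe set was dim, at the 4.08 percentile of mean signal over genes. The number of rises in this list was 18 without YW3-56 replicate 3, 19 without YW3-56 replicate 2 and 20 without DMSO replicate 2. It was 22 without YW3-56 replicate 1, 24 without DMSO replicate 1 and 25 without DMSO replicate 3. The DMSO arrays ranked alike for this list and for the stress effectors. The mean level of the 29 genes was 9.58, 9.87 and 10.05 in DMSO replicates 1, 2 and 3, and that of the 5 genes called higher here was 8.27, 8.45 and 8.62. Among the treated arrays the list measured 10.81, 10.92 and 10.98, while the 5 genes measured 9.77, 9.64 and 9.63. With arrays centred on their medians, the DMSO means kept their order, at 9.66, 9.85 and 9.94 for the list and 8.35, 8.43 and 8.51 for the 5 genes.

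**Figure D4:**
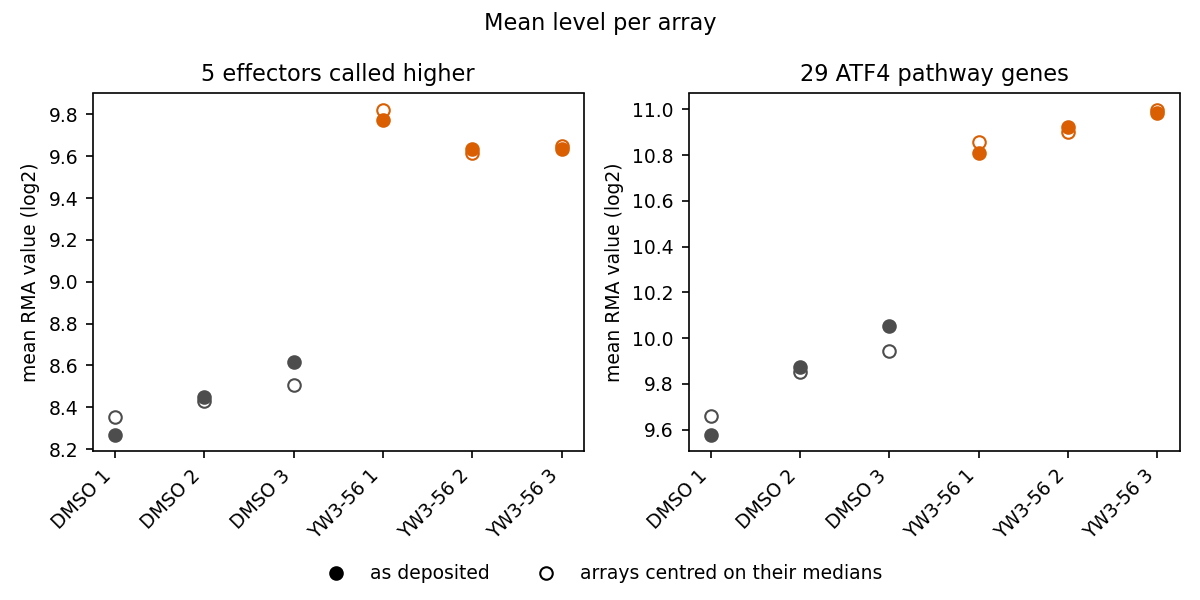
Mean RMA value (log2, vertical axis) on each array for the 5 effectors called higher (left) and the 29 measured genes of the ATF4 pathway list (right), with DMSO in grey, YW3-56 in orange, filled points as deposited and open points after centring of each array on its median. DMSO replicate 1 was lowest in both sets, at 8.27 and 9.58.

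Of 18 measured genes for binding partners and regulated proteins of the tribbles family, 2 were called higher, 4 lower and 12 not called (median -0.07). The shares were 11.1% higher and 22.2% lower, beside 9.84% and 11.5% of all genes. The arrays read mRNA, so binding by tribbles proteins and breakdown of their protein targets were not measured. DET1, a component of the COP1 ligase complex, rose by 0.65 ± 0.11, and ACACB, an acetyl-CoA carboxylase, by 0.55. COP1 itself was at 0.20 (adjusted p = 0.113). CEBPA, whose protein is the best known target of TRIB1 and TRIB2, was at -0.09 (adjusted p = 0.644). Other C/EBP genes, counted in the ATF4 pathway list, were called higher, namely CEBPB (0.83), CEBPG (0.57) and CEBPD (0.40). PPARG, a nuclear receptor of fat metabolism, fell by 0.85 ± 0.23, the other acetyl-CoA carboxylase ACACA changed by -0.37, and the kinases AKT2 and AKT1, partners of TRIB3, by -0.34 and -0.29. The groups overlapped for PPARG, and omission of DMSO replicate 2 (adjusted p = 0.103), YW3-56 replicate 2 (0.114) or YW3-56 replicate 3 (0.130) ended its call. Between arrays of the same number PPARG changed by -0.84, -1.08 and -0.63, and with the number as a block its SE was 0.10 (adjusted p = 0.0023). The number of falls was 2 without DMSO replicate 1, and 1 without DMSO replicate 2, YW3-56 replicate 2 or YW3-56 replicate 3. ACACA was not called without DMSO replicate 1 (0.056), DMSO replicate 2 (0.108), YW3-56 replicate 2 (0.112) or YW3-56 replicate 3 (0.144), nor after centring of each array (0.104). AKT1 was not called when any 1 of the 6 arrays was left out (adjusted p from 0.054 to 0.149), nor after a repeated quantile normalization (0.055) or centring (0.155).

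Receptors and relatives of the secreted effectors gave 1 call among 13 measured genes, with 0 lower by limma and 12 not called (median -0.08). The share called higher was 7.69%, beside 9.84% of all genes. At an unadjusted p under 0.05, 2 were lower, and as many were called with replicate number as a block. FGFR1, a receptor that FGF21 uses together with beta-Klotho, was higher by 0.31 ± 0.07 (adjusted p = 0.012), a call lost without YW3-56 replicate 3 (adjusted p = 0.064). KLB, which encodes beta-Klotho, was at -0.26 (adjusted p = 0.202), the GDF15 receptor GFRAL at 0.14 (0.461), and STC1, the relative of STC2, at -0.33 (0.079). Of 8 measured genes of reelin and lipoprotein receptor signalling, limma called 0, also at an unadjusted p under 0.05, and 1 with replicate number as a block. Among them was LRP8, the closest relative of VLDLR, at -0.09 (median of the list -0.06).

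Translation genes around EIF4EBP1 held 0 rises and 3 falls by limma among 13 measured (median -0.11), and 0 and 4 at an unadjusted p under 0.05. The share called lower was 23.1%, beside 11.5% of all genes. The RNA helicase EIF4A2 fell by 0.38 ± 0.07 on the brighter of its 2 probe sets and by 1.28 ± 0.14 on the dimmer, with -0.83 for their mean. RPTOR, a subunit of mTORC1, fell by 0.36 and the scaffold EIF4G1 by 0.34. EIF4EBP2, the relative of EIF4EBP1, was at -0.22 (adjusted p = 0.110), and EIF4E, the factor both bind, at -0.11 (0.406). The EIF4E probe set was rather dim, at the 24.0 percentile of mean signal over genes. RPTOR and EIF4G1 were not called without DMSO replicate 2 or YW3-56 replicate 2 or 3 (adjusted p from 0.060 to 0.094), when the list held 1 fall, nor after centring of each array (0.081 and 0.092).

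A list of genes drawn up around NUPR1 and NIBAN1 gave 1 rise and 4 falls among 9 measured (median -0.13). The shares were 11.1% and 44.4%, beside 9.84% and 11.5% of all genes. Links of the listed genes to NUPR1 or NIBAN1 were not tested. NIBAN2 fell by 0.92 ± 0.11, opposite to NIBAN1, and NIBAN3 was at -0.10 (adjusted p = 0.608). EP300, the acetyltransferase with which NUPR1 associates, rose by 0.88 ± 0.08. IER3, an immediate early survival gene, fell by 1.46 ± 0.18, and the mitotic kinase AURKA fell by 0.60. RASSF3, a member of the RAS association family, changed by -0.39 (adjusted p = 0.038). It was called without DMSO replicate 3 but not without any 1 of the other arrays (adjusted p from 0.057 to 0.148), nor after a repeated quantile normalization (0.077) or centring (0.093). GDF15 is also known as a target of p53, which is mutated in this line. Of 15 measured p53 target genes, 6 were called higher, 2 lower and 7 not called (median 0.18). The shares were 40.0% higher and 13.3% lower, beside 9.84% and 11.5% of all genes. GADD45A (1.15 ± 0.11), PLK3 (0.56), ZMAT3 (-1.01 ± 0.17) and AEN (-0.75) changed most, and MDM2 was at -0.24 (adjusted p = 0.066). The number of rises was 3 without DMSO replicate 2, YW3-56 replicate 2 or YW3-56 replicate 3.

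**Figure D5:**
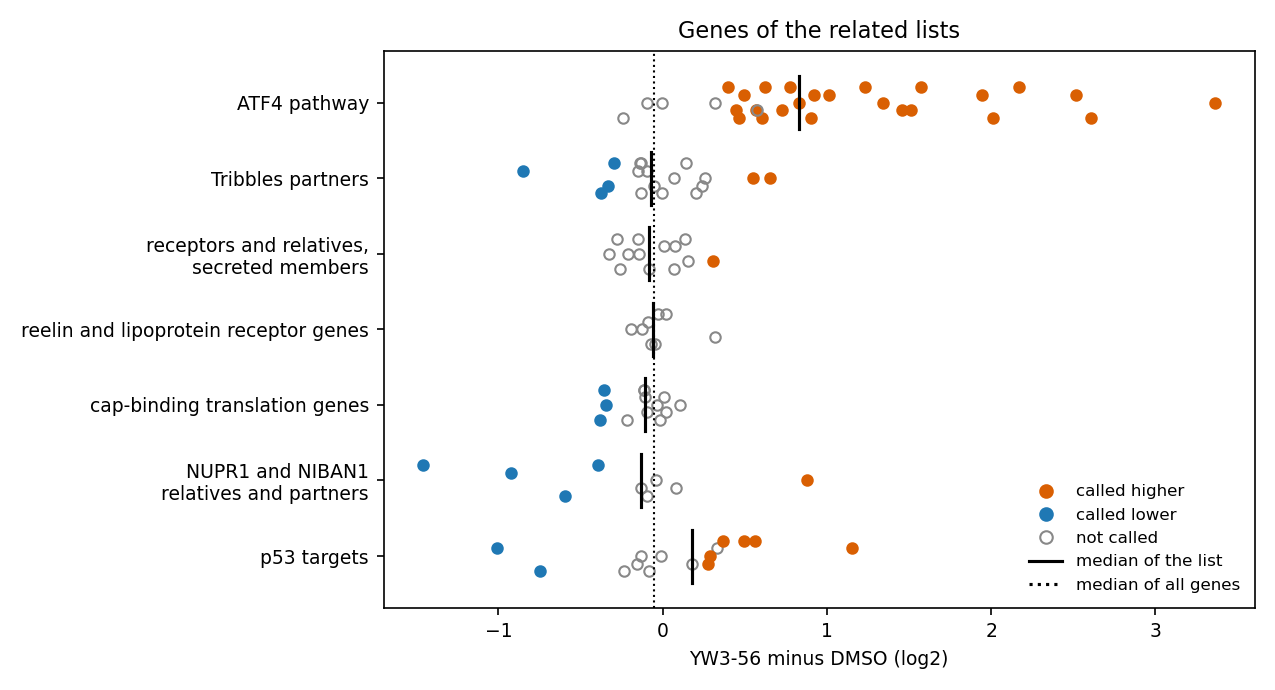
Log2 difference (YW3-56 minus DMSO, horizontal axis) of each measured gene in the 7 related lists, one list per line, with orange for genes called higher, blue for genes called lower, open circles for genes not called, a black bar for the list's median and a dotted line for the median over all genes. The ATF4 pathway list has its median at 0.83, and the medians of the other lists lie between -0.13 and 0.18.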

How the data were processed

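The deposited table holds log2 values for 33297 probe sets and 6 arrays. These were made by the authors with RMA (affy), according to the submitters' processing notes, with versions and build not given in the sources used here. The method equalises probe intensity distributions between arrays, so a shift of all transcripts together may not show, although medians of the deposited values still ran from 7.55 to 7.74. Probe sets with 1 gene symbol in the platform annotation were kept (19460; 1754 had several symbols and 12083 none), and the brightest by mean over arrays stood for a gene. All 10 members matched RefSeq by Entrez identifier.

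Groups were compared with limma 3.58.1 in R 4.3.3 (lmFit, eBayes, group as the only term, no filter), with Benjamini-Hochberg adjustment over 18417 genes. The number of arrays limits the precision. The members and lists were chosen with earlier results of these data known. The fitting code was tested on simulated data with noise drawn independently for each gene and array. Deviations of the real arrays correlated over genes, so that test checks the code and not the calls given here. Named list genes were up to 4 called members with the largest change. List genes given beyond that were chosen after their values were seen or complete a small count. Genes near TRIB3 were the 4 at the smallest distance.

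Deviations from group means correlated over genes at 0.54, 0.37 and 0.10 between arrays numbered 1, 2 and 3. Each value lay above the bound of 0.1 by which numbers are taken to pair arrays, the last barely. DMSO replicate 3 and YW3-56 replicate 2 correlated at 0.42, above the values for numbers 2 and 3, so the pairing of these numbers is uncertain. A replicate block changed no member's call. Alternatives were scaling, filters on dim genes, probe set choice, variance priors, array weights and leaving out arrays.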

Additional observations from a re-analysis of the deposited data

How the results depend on the processing

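TRIB2, TRIB3 and NIBAN1 kept their calls and directions under each alternative that tested them. GDF15 (adjusted p = 0.057), VLDLR (0.059) and NUPR1 (0.132) were lost in a per-gene linear model without shared variance, where 2 members were called higher. Without the dimmest 25% of genes, which removed FGF21 and STC2, the members' median difference was 0.75, and without the dimmest 50%, which also removed TRIB2 and NUPR1, it was 1.06 with 0 members called lower. Leaving out 1 array gave 4 to 6 members called higher, 1 lower, a median of 0.30 to 0.48 and 2364 to 4689 calls over all genes. The lowest count came without YW3-56 replicate 3, with 1158 rises and 1206 falls against 1812 and 2121, and there were 1309 falls without YW3-56 replicate 2. Array weights gave 6079 calls against 3933, with 3432 falls. With replicate number as a block, 4776 genes were called. The per-gene model gave 14 rises in the ATF4 list against 24, 1 fall among p53 targets and 1 among tribbles partners, centring gave 2 falls among tribbles partners and 1 among translation genes, and the trended and robust prior gave 5 falls among translation genes. Tribbles partners had 4 rises without the dimmest 50% of genes and 5 with array weights. Array weights gave 3 falls among receptors and relatives of the secreted effectors and the block 2. The causes were not tested. RMA values carry no detection call, so the dim FGF21 and STC2 probe sets may hold little signal.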
